A study of Mus musculus with 15 samples.

Results

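The 10 genes described here encode the apolipoproteins of high-density lipoprotein (HDL) and of triglyceride-rich lipoproteins, together with 2 proteins that load or remodel those particles. They are Apoa1, Apoa2, Apoa4, Apoa5, Apob, Apoc2, Apoc3, Apoe, Mttp and Lcat, out of 55450 gene IDs in the count table. The genes were listed by symbol, with earlier results of these data known. Each of the 10 passed the low-count filter, as did 15808 genes in all. Poly(A) RNA was sequenced from the liver of 15 female C57BL/6 mice, 1 library per mouse. At the start the 5 animals of the Adult group, A1 to A5, had an age of 6 months and the 5 of the Old group, O1 to O5, an age of 22 months, and both groups received corn oil vehicle by gavage. The 5 PDX mice (P1 to P5) were also 22 months old and received protectin DX, a lipid mediator derived from docosahexaenoic acid, at 30 ng per g of body weight in corn oil. Gavage was daily for 9 weeks according to the sample labels, while the series description gives a shorter period. There was no 6-month-old PDX group, so the effect of the agent can be compared in aged mice only, and whole liver was used, so fewer cells of a type and less RNA per cell cannot be told apart.

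Apolipoproteins are the protein coat of lipoproteins, the particles that carry cholesterol and triglyceride in blood, and the hepatocyte is the main source of most of them. ApoA-I and apoA-II are the structural proteins of HDL, which takes up cholesterol from cells, and Lcat is the plasma enzyme that esterifies that cholesterol. ApoB is the backbone of very-low-density lipoprotein (VLDL), which Mttp loads with triglyceride in the endoplasmic reticulum. ApoC-II activates lipoprotein lipase, apoC-III restrains it, apoA-V promotes triglyceride clearance, and apoE is a ligand for the receptors that remove remnant particles.

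Counted read pairs ranged from 22424383 to 36070835 per mouse, and levels are given as CPM, the counts of a gene relative to the counted read pairs of its library, after scaling with the trimmed mean of M-values (TMM). Mice O2 and O5 stood apart. The TMM factor of O2 was 1.33 against 0.884 to 1.08 in the other 14 mice. Marker sums are given here as CPM on library totals, without TMM scaling. On that scale O5 held the lowest sum of the 10 hepatocyte markers, 85028 CPM. The other 4 Old mice held 110969 to 193046 CPM and the Adult mice 142099 to 148060 CPM. TMM scaling would lower the sum of O2 (110969 CPM) more than that of O5. O2 held the highest summed level of the 9 Kupffer cell and macrophage markers, 5643 CPM against 412 to 1188 in the other Old mice. Between Old and Adult livers, 7 of 7 tested neutrophil markers, 5 of 7 lipid-associated macrophage markers (Lpl among them), 3 of 10 tested lymphocyte markers and 3 of 8 stellate cell markers rose and 2 of 10 hepatocyte markers, Cyp2e1 and Ass1, fell (edgeR, adjusted p under 0.05), while 0 of 9 Kupffer cell, 0 of 8 sinusoidal endothelium, 0 of 5 cholangiocyte and 0 of 6 erythroid markers passed. The part of these differences in the results below was not tested, and where a named gene of the lists lost its Old minus Adult call without O2 and O5, or its value moved by over 1.5 times, the value without them is given.

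Of the 10 genes, Apoa4 alone passed the test in the comparison of Old with Adult livers, and it was higher in Old. This was 1 of 10 genes against 6.78% of all tested genes called at an adjusted p under 0.05 (edgeR quasi-likelihood test, Benjamini-Hochberg adjustment over all tested genes). Between PDX and Old livers none of the 10 was called at an adjusted p under 0.25, where 0.0% of all tested genes were called. Between PDX and Adult livers Apoa4 was again the member called, against 2.66% of all tested genes at an adjusted p under 0.05. The median log2 fold change of the 10 genes was -0.05 for Old minus Adult, 0.08 for PDX minus Old and -0.14 for PDX minus Adult, beside 0.07, -0.07 and -0.01 over all tested genes. Other fits gave other counts. For Old minus Adult, DESeq2 called 4 members (Apoa1, Apoa2, Apoa4 and Apoe), where it called 13.5% of all genes with an adjusted p, limma-trend called 0, where it called 4.83%, and edgeR on library totals called 2 (Apoa1 and Apoa4), where it called 6.86%. Without O2 and O5 edgeR called 1 (Apoa1), where it called 7.12% of all tested genes. For PDX minus Adult DESeq2 called 2 (Apoa1 and Apoa4), where it called 7.41%, a fit of those 10 mice alone called 5 (Apoa1, Apoa2, Apoa4, Apoa5 and Apoe), where it called 29.6% of all tested genes, and the fit without O2 and O5 called 4 (Apoa1, Apoa2, Apoa4 and Apoa5), where it called 24.6%. These comparisons share mice with each other, so that their values are given side by side and not as independent results.

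**Figure D1:**
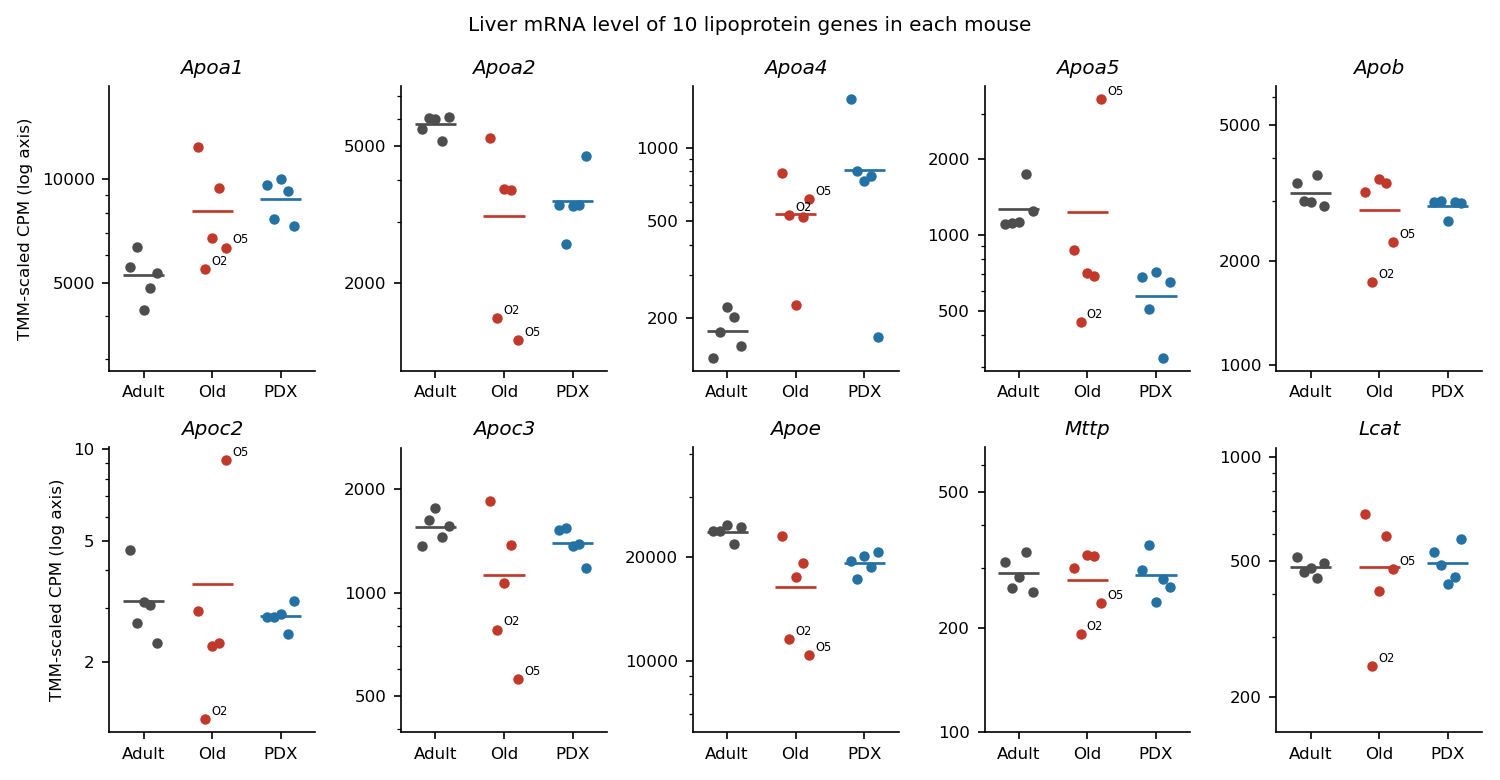
TMM-scaled CPM of each gene (log axis) in the 5 Adult, 5 Old and 5 PDX mice. Each point is 1 mouse and each bar a group mean. Apoa4 was above the Adult range in all 5 Old mice. O2 and O5 (marked) were the lowest Old mice for Apoa1, Apoa2, Apob, Apoc3, Apoe and Mttp.

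Per kilobase of exon, which allows levels to be set side by side between genes, Apoe was the most abundant member in Adult liver at 11109 ± 545 CPM per kb (mean ± SD, n = 5). Apoa2 followed at 10777 ± 729 CPM per kb, with a range that overlapped that of Apoe. Next came Apoa1 at 4245 ± 665 CPM per kb and then Apoc3 at 1534 ± 150 CPM per kb. The order then ran through Apoa5 (502 ± 108 CPM per kb), Lcat (356 ± 19.4), Apob (227 ± 21.1), Apoa4 (97.7 ± 19.1), Mttp (46.6 ± 5.36) and Apoc2 (3.90 ± 1.11), and no other pair of neighbours overlapped among the Adult mice. In Old liver Apoa1 stood above Apoa2, at 6543 ± 2292 against 5845 ± 3079 CPM per kb, but their ranges overlapped each other and that of Apoe. In PDX liver Apoa4 stood just after Apoc3 at 446 ± 279 CPM per kb and Apoa5 after Lcat at 228 ± 62.8 CPM per kb, an order in which Apoa4 overlapped Lcat and Apoa5 overlapped Apob. Together the 10 genes took 3.97% to 4.20% of all counted read pairs in the Adult mice, 2.68% to 4.28% in the Old mice and 3.17% to 4.28% in the PDX mice, and Apoe alone took 2.19% to 2.43%, 1.08% to 2.04% and 1.6% to 2.18%.

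On TMM-scaled CPM, each of the 10 genes varied more among Old mice than among Adult mice. Their coefficients of variation ran from 4.91% to 28.4% in Adult and from 21.6% to 101% in Old livers, and in 9 of 10 genes, Apoa4 being the exception, that of Old was also above that of PDX (5.47% to 62.5%). Without O2 and O5 the Old value was above the Adult value in 6 of 10 genes. The matching shares over all tested genes were not computed. Whether the wider spread is particular to these 10 genes was therefore not tested. The paper describes marked variation of liver gene expression among its Old mice, with O2 and O5 apart from the others. The part of the TMM factor of O2 in this spread was not tested either.

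ApoA-IV, a protein of chylomicrons, VLDL and HDL that the intestine makes in large amounts and that mouse liver also makes, was the member called. The 5 Adult mice (A1 to A5) had 137, 174, 221, 202 and 153 CPM of Apoa4. The 5 Old mice (O1 to O5) had 785, 527, 225, 519 and 614 CPM. The 5 PDX mice (P1 to P5) had 1586, 800, 729, 767 and 167 CPM. All 5 Old mice were therefore above the highest Adult mouse, O3 by a narrow margin, whereas P5 lay within the Adult range and the other 4 PDX mice lay above it.

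Apoa4 rose 3.01-fold in Old over Adult livers (log2 fold change 1.59 ± 0.43 SE, 95% interval 0.67 to 2.52, edgeR adjusted p = 0.0419) and 4.57-fold in PDX over Adult livers (log2 fold change 2.19 ± 0.44, 95% interval 1.25 to 3.13, adjusted p = 0.0162). The difference between PDX and Old was not called (log2 fold change 0.60 ± 0.43, 95% interval -0.31 to 1.51, adjusted p = 0.793). The Old call was close to its threshold. With A1, A2, A3, A4 or A5 left out in turn the edgeR adjusted p was 0.0946, 0.0952, 0.0799, 0.0865 and 0.0993, without O1 it was 0.0561 and without O2 0.062, while the log2 fold change stayed between 1.43 and 1.78 over all 10 such fits. Without both O2 and O5 the log2 fold change was 1.53 and the adjusted p 0.072. The PDX minus Adult call was lost without A1 (adjusted p = 0.054), A2 (0.0527) or A5 (0.0567) and kept in the other 7 fits. Of 8 markers of intestinal enterocytes, 5 were at or near 0 in these libraries: Sis, Cdx2 and Alpi had 0 counts in every mouse, Cdx1 at most 1 count and Lct at most 7, against 4853 to 40202 counts of Apoa4. The other 3 (Fabp2, Vil1 and Cdhr5) passed the low-count filter and 0 were called in any comparison.

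**Figure D2:**
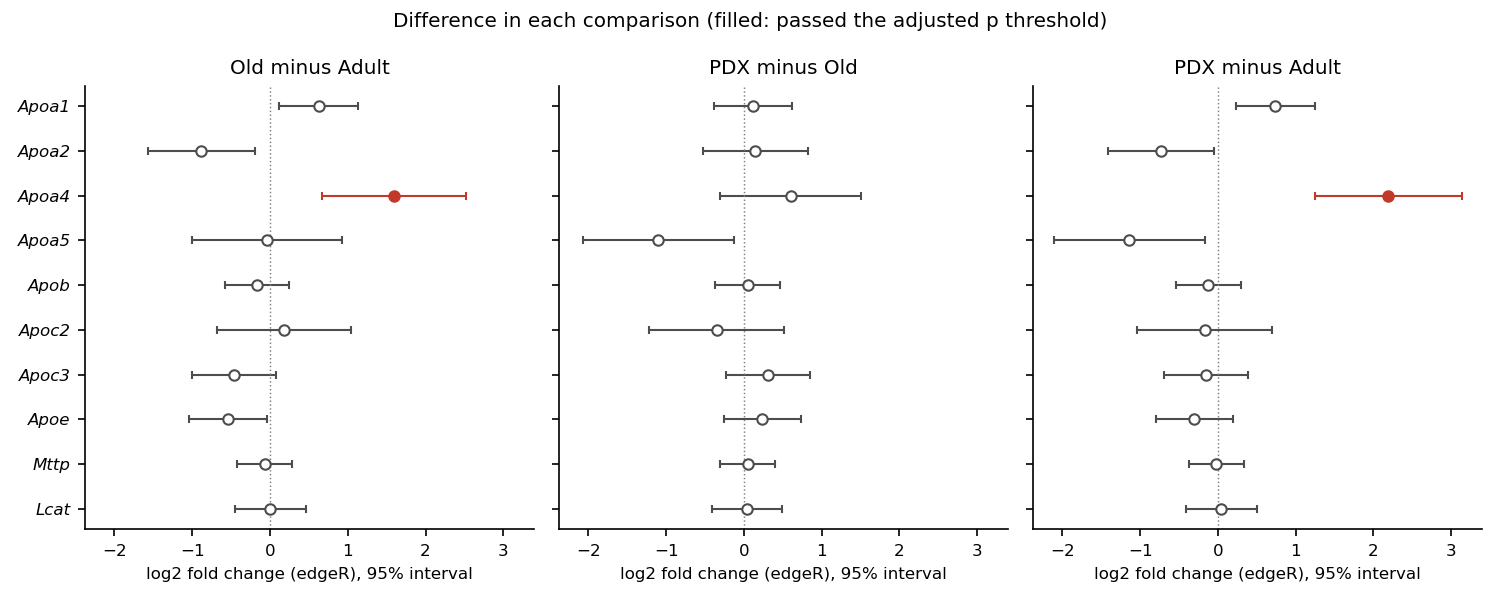
Log2 fold change of each gene (edgeR, all 15 mice) with its 95% interval, in 3 panels for Old minus Adult, PDX minus Old and PDX minus Adult. Filled points passed the threshold of their comparison, an adjusted p under 0.05 or, for PDX minus Old, under 0.25, and Apoa4 is the filled point in the first and the last panel.

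In both comparisons with Adult livers the 2 structural HDL apolipoproteins had log2 fold changes of opposite sign, none of them called. Apoa1 had 5537, 6372, 4172, 4816 and 5340 CPM in A1 to A5, and 12402, 5487, 6762, 9457 and 6330 CPM in O1 to O5. In P1 to P5 it had 9611, 7638, 10047, 9258 and 7297 CPM. In all, 3 of 5 Old mice and 5 of 5 PDX mice were above the highest Adult mouse. The log2 fold change was 0.62 ± 0.24 for Old minus Adult (95% interval 0.12 to 1.13, edgeR adjusted p = 0.107) and 0.74 ± 0.24 for PDX minus Adult (95% interval 0.23 to 1.25, adjusted p = 0.105). Without O2 and O5 the Old minus Adult value was 0.87 and was called (adjusted p = 0.0157, 3 Old mice with 9540 ± 2821 CPM), and the PDX minus Adult value was then 0.76 and was called too (adjusted p = 0.00524).

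Apoa2 had 5595, 6059, 6004, 5186 and 6092 CPM in A1 to A5, and 5290, 1575, 3743, 3723 and 1362 CPM in O1 to O5. In P1 to P5 it had 3363, 2597, 3340, 3374 and 4697 CPM. In all, 4 of 5 Old and 5 of 5 PDX mice were below the lowest Adult mouse, and O1 lay within the Adult range. The log2 fold change was -0.88 ± 0.32 for Old minus Adult (95% interval -1.57 to -0.20, edgeR adjusted p = 0.0934) and -0.74 ± 0.32 for PDX minus Adult (95% interval -1.42 to -0.05, adjusted p = 0.207). Leaving out O1 alone gave a call at -1.14 (adjusted p = 0.0389), whereas leaving out O2 and O5 gave -0.43 (adjusted p = 0.15). Without O2 and O5 the PDX minus Adult value was -0.72 and was called (adjusted p = 0.00428). For PDX minus Old, Apoa1 differed by 0.12 (95% interval -0.39 to 0.62) and Apoa2 by 0.15 (-0.53 to 0.83) on the log2 scale.

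The ratio of Apoa1 to Apoa2 counts within a liver needs no scaling between libraries. It was 0.99, 1.05, 0.695, 0.929 and 0.877 in A1 to A5, and 2.34, 3.48, 1.81, 2.54 and 4.65 in O1 to O5. In P1 to P5 it was 2.86, 2.94, 3.01, 2.74 and 1.55. The Adult mice and the 10 aged mice did not overlap, and Old and PDX mice did. The ratio of Apoa1 to Apoc3 counts, which come from neighbouring genes, was 2.36 to 4.04 in Adult, 6.33 to 11.3 in Old and 4.95 to 7.36 in PDX livers, again without overlap between Adult and either aged group. The ratio of Apoa4 to Apob counts was 0.0405 to 0.0745 in Adult, 0.0648 to 0.303 in Old and 0.0564 to 0.532 in PDX livers, with O3 and P5 inside the Adult range. The ratio of Apoa4 to Apoa1 counts overlapped, with 0.0247 to 0.0530 in Adult, 0.0333 to 0.0971 in Old and 0.0229 to 0.165 in PDX livers. That of Apoa5 to Apoc3 was 0.635 to 1.20 in Adult and 0.471 to 6.15 in Old livers, with overlap. In PDX livers it was 0.235 to 0.549, below the Adult range. These ratios were chosen after the values were seen and are given without a test.

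**Figure D3:**
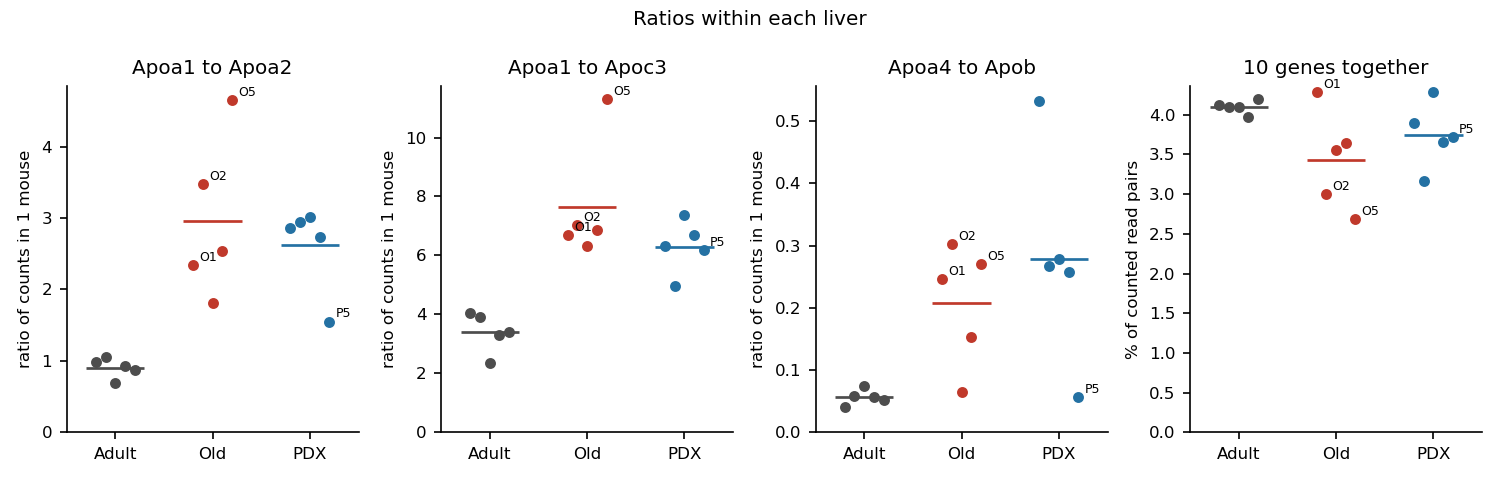
Ratios of counts within each liver for Apoa1 to Apoa2, Apoa1 to Apoc3 and Apoa4 to Apob, and, in the last panel, the 10 genes together as % of counted read pairs. Each point is 1 mouse, bars are group means and axes start at 0. The Apoa1 to Apoa2 ratio was at most 1.05 in the Adult mice and at least 1.55 in every Old and PDX mouse.

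Apoa1, Apoc3, Apoa4 and Apoa5 lie within 43.3 kb of each other on chromosome 9 (GRCm38). Apoa1 occupies chr9:46228580-46230466 on the plus strand, Apoc3 chr9:46232933-46235636 on the minus strand, Apoa4 chr9:46240696-46243459 on the plus strand and Apoa5 chr9:46268633-46271919 on the plus strand. In Old minus Adult these neighbours had log2 fold changes of 0.62 (Apoa1), -0.46 (Apoc3), 1.59 (Apoa4, the one called) and -0.04 (Apoa5). In PDX minus Adult they had 0.74, -0.15, 2.19 (Apoa4, called) and -1.14. The flanking genes Sik3 and Zpr1 had -0.01 and 0.56 for Old minus Adult (edgeR adjusted p = 0.98 and 0.437).

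The bases before the transcription start are shown for the 3 cluster genes that RefSeq's promoter table holds and for Apoa2, whose log2 fold changes against Adult livers had the opposite sign to those of Apoa1 (9 of the 10 members matched by symbol, and Apoc3 had no entry). They are written 5′ to 3′ on the gene's strand, RefSeq, GRCm38.p6, and stop before the first annotated start of the gene. Capitals mark matches, on either strand, to TATAAA (the TATA box), AGGTCA (the core of nuclear receptor sites), TGTTTNC (the core of forkhead factor sites), CACGTG (the E-box) or DR1, which is AGGNCA written 2 times in 1 direction with 1 base between.
Apoa1, chr9:46228380-46228579 (+): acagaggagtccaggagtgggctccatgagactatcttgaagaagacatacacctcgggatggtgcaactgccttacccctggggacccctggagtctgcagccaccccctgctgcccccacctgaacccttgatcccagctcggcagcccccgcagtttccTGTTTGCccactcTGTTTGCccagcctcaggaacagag
Apoa4, chr9:46240594-46240695 (+): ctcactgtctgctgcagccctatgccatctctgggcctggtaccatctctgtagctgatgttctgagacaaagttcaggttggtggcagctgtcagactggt
Apoa5, chr9:46268383-46268632 (+): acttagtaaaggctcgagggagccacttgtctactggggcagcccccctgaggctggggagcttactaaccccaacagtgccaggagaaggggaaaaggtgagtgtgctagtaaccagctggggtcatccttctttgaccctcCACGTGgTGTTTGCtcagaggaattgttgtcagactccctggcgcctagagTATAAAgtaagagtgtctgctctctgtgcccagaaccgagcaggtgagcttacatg
Apoa2, chr1:171224804-171225053 (+): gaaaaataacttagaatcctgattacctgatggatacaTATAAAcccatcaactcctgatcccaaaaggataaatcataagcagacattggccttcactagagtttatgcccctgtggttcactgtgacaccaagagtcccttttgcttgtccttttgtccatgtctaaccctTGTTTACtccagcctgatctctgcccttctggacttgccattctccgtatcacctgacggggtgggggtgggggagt
The Apoa1 window held TGTTTNC at 2 places, 88 to 82 and 75 to 69 bases before the RefSeq start, against 14.9% of 27025 genes' promoters with at least 1 match in the same 200 bases. The Apoa2 and Apoa5 windows of 250 bases each held TGTTTNC and TATAAA once (17.9% and 13.0% of all promoters), and Apoa5 also held CACGTG (6.05%). The TATAAA letters lay 212 to 207 bases before the RefSeq start in Apoa2 and 56 to 51 bases before it in Apoa5. None of the 5 motifs was written in the 102 bases shown for Apoa4. In the same 102 bases each motif was held by 0.0888% to 8.44% of all promoters. The 148 bases next to the RefSeq start of Apoa4 were left out of its window and not searched. These matches are descriptions of the letters and not sites shown to be bound.

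**Figure D4:**
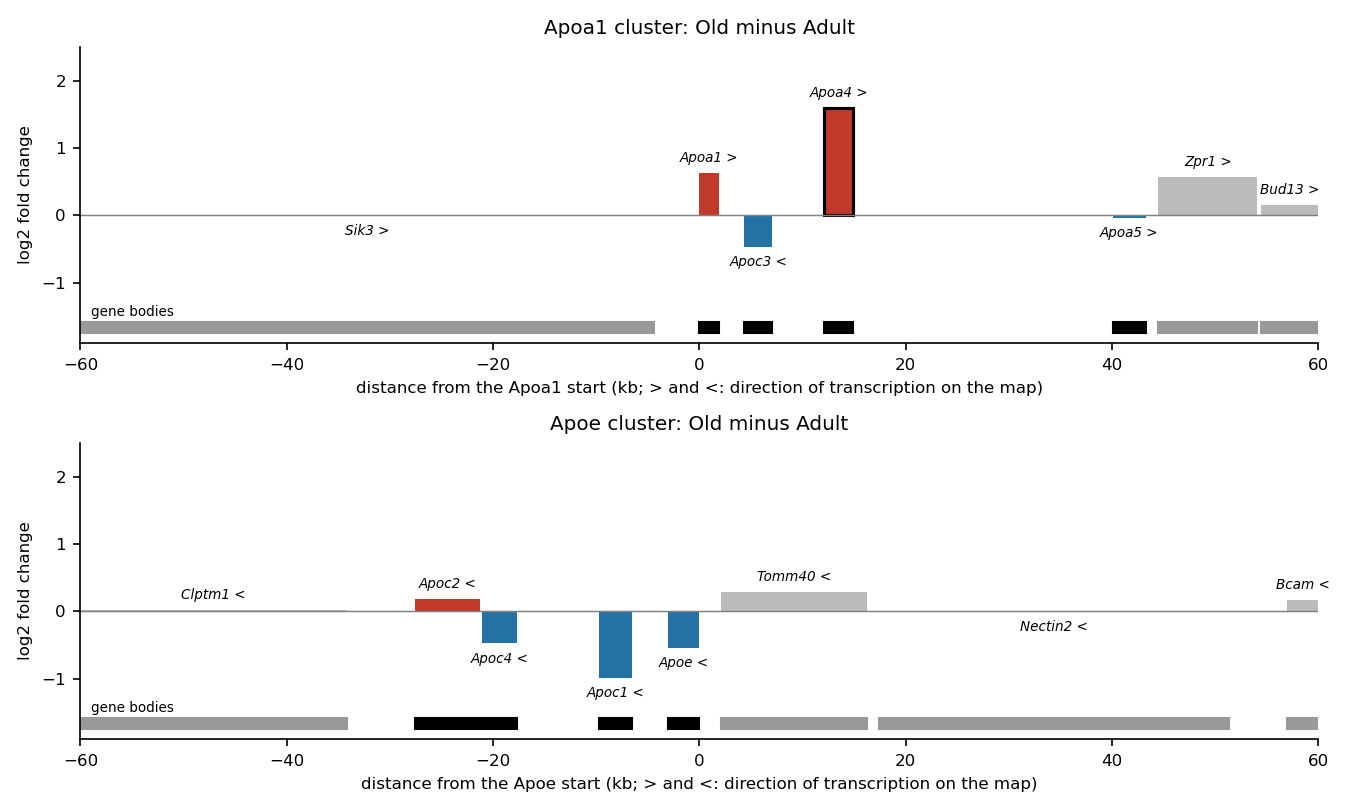
Log2 fold change, Old minus Adult (edgeR), of the protein-coding genes within 60 kb of the starts of Apoa1 and Apoe, drawn at their distance from that start in kb, with gene bodies to scale below. Red and blue bars are apolipoprotein genes above and below 0, and grey bars are other genes. The outlined bar, Apoa4, is the one drawn gene that passed an adjusted p under 0.05. Gm44805, which overlaps Apoc2 and also passed (edgeR adjusted p = 0.045), is not drawn.

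Apoa5 varied most among the Old mice. It had 1102, 1118, 1121, 1743 and 1245 CPM in A1 to A5, and 872, 451, 708, 687 and 3439 CPM in O1 to O5. In P1 to P5 it had 679, 511, 709, 326 and 649 CPM. O5 was thus the highest of the 15 mice, while the other 4 Old mice and all 5 PDX mice were below the lowest Adult mouse. The log2 fold change was -0.04 ± 0.45 for Old minus Adult (95% interval -1.0 to 0.92, edgeR adjusted p = 0.964), and without O5 it was -0.90 and called (adjusted p = 0.0329), while without O2 and O5 it was -0.73 (adjusted p = 0.073). For PDX minus Adult it was -1.14 ± 0.46 (95% interval -2.11 to -0.17, adjusted p = 0.173), and -1.12 and called without O2 and O5 (adjusted p = 0.00171). For PDX minus Old it was -1.10 ± 0.46 (95% interval -2.07 to -0.13, adjusted p = 0.793), and without O5 it was -0.24 (adjusted p = 0.999).

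Apoc3 had 1556 ± 153 CPM in Adult, 1127 ± 508 in Old and 1399 ± 145 in PDX livers (mean ± SD, n = 5). O2 (780 CPM) and O5 (560 CPM) were the lowest of the 15 mice and O1 (1853 CPM) the highest, so the Old mice surrounded the Adult range. Its log2 fold change was -0.46 ± 0.26 for Old minus Adult (95% interval -1.01 to 0.08, edgeR adjusted p = 0.25), 0.31 for PDX minus Old (-0.23 to 0.86, adjusted p = 0.806) and -0.15 for PDX minus Adult (-0.70 to 0.39, adjusted p = 0.793). None was called. The Old minus Adult value of Apoc3 was -0.11 without O2 and O5 (adjusted p = 0.72).

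On chromosome 7 (minus strand) Apoe, at chr7:19696109-19699188, lies beside Apoc1, Apoc4 and Apoc2, the last at chr7:19671579-19677941. Apoe had 23751 ± 1165 CPM in Adult, 16343 ± 5322 in Old and 19283 ± 1386 in PDX livers (n = 5). Its Old values were 23079, 11572, 17455, 19232 and 10379 CPM in O1 to O5, so 4 of 5 Old mice were below the lowest Adult mouse (21828 CPM). All 5 PDX mice were below it too. The log2 fold change was -0.54 ± 0.23 for Old minus Adult (95% interval -1.04 to -0.04, edgeR adjusted p = 0.152) and -0.30 ± 0.23 for PDX minus Adult (-0.80 to 0.20, adjusted p = 0.502), neither called. Without O2 and O5 the Old minus Adult value was -0.24 (adjusted p = 0.235). Apoc1, an apolipoprotein of VLDL and HDL and the gene of smallest p in the list of other apolipoproteins, had 2046 ± 185 CPM in Adult and 1029 ± 444 in Old livers, a log2 fold change of -0.99 ± 0.29 (adjusted p = 0.0517) without overlap of the 2 groups, and of -0.59 without O2 and O5 (adjusted p = 0.0566).

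The level of Apoc2 is uncertain in these counts. Of its 813 exon bases, 646 (79.5%) are shared on the same strand with Gm44805, a gene that joins Apoc4 to Apoc2 in the GENCODE M21 annotation, and only read pairs assigned to a single gene were counted. Apoc2 had 44 to 255 counts per library and Gm44805 19 to 118, the latter with a log2 fold change of -0.99 for Old minus Adult (edgeR adjusted p = 0.045). Apoc2 had 2.30 to 4.67 CPM in the Adult mice and 2.47 to 3.17 in the PDX mice. In O1 to O5 it had 2.93, 1.29, 2.26, 2.30 and 9.20 CPM, with O5 the highest of the 15 mice, as for Apoa5. Its log2 fold change was 0.18 ± 0.41 for Old minus Adult (edgeR adjusted p = 0.811), and without O5 it was -0.54 (adjusted p = 0.149), or -0.34 without O2 and O5 (adjusted p = 0.367).

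Neither gene of VLDL assembly, nor Lcat, was called in any comparison or alternative fit. Apob, at chr12:7977648-8016835, had 3160 ± 294 CPM in Adult, 2812 ± 764 in Old and 2906 ± 159 in PDX livers (n = 5). O2 (1742 CPM) and O5 (2277 CPM) were the lowest of the 15 mice. The log2 fold change was -0.17 (95% interval -0.58 to 0.25) for Old minus Adult, 0.05 (-0.37 to 0.46) for PDX minus Old and -0.12 (-0.54 to 0.29) for PDX minus Adult, with edgeR adjusted p-values of 0.609, 0.956 and 0.783. Its Old minus Adult value was 0.09 without O2 and O5 (adjusted p = 0.62). Mttp, at chr3:138089854-138144968, had 289 ± 33.3 CPM in Adult, 276 ± 59.8 in Old and 285 ± 41.3 in PDX livers. Its log2 fold changes were -0.07 (-0.42 to 0.29), 0.05 (-0.31 to 0.40) and -0.02 (-0.37 to 0.33), and every bound of these 95% intervals lay within 0.42 of 0. The Old minus Adult value of Mttp was 0.15 without O2 and O5 (adjusted p = 0.506). Lcat, at chr8:105939551-105943382, had 478 ± 26.0 CPM in Adult, 480 ± 169 in Old and 494 ± 60.9 in PDX livers, where O1 (685 CPM) was the highest and O2 (246 CPM) the lowest of the 15 mice. Its log2 fold changes were 0.01 (-0.45 to 0.46), 0.04 (-0.42 to 0.50) and 0.05 (-0.41 to 0.50), with adjusted p-values of 0.989, 0.969 and 0.935. That of Lcat for Old minus Adult was 0.24 without O2 and O5 (adjusted p = 0.339).

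Apoa4 was 1 of 10 genes whose Old and Adult mice did not overlap on TMM-scaled CPM, beside 8.13% of all tested genes. On CPM scaled by library totals there were 4 (Apoa1, Apoa2, Apoa4 and Apoe), beside 7.56% of all tested genes. Between PDX and Adult 4 of 10 did not overlap on either scale (Apoa1, Apoa2, Apoa5 and Apoe), beside 19.9% of all tested genes on TMM-scaled CPM. Between PDX and Old 0 of 10 were apart, beside 0.342%. In that comparison edgeR called 0 of 15808 genes at an adjusted p under 0.25, 834 genes and 1 member, Apoa5, had an unadjusted p under 0.05, and DESeq2, limma-trend and limma on the deposited log2-scale values called 1, 0 and 0 genes, none of them a member.

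Of the 77 tested genes of 5 wider pathway lists, 3 (3.9%) were called for Old minus Adult, beside 6.78% of all tested genes, and 4 (5.19%) for PDX minus Adult, beside 2.66%. Of 10 tested genes for other apolipoproteins, 0 were called between Old and Adult livers and 2 rose between PDX and Adult livers, Saa1 and Saa2, the acute-phase serum amyloid A proteins that ride on HDL. Saa1 rose from 42.5 ± 23.4 CPM in Adult to 1939 ± 3576 CPM in PDX livers (log2 fold change 5.51, edgeR adjusted p = 0.0314) and Saa2 from 18.3 ± 8.63 to 1828 ± 3625 CPM (6.65, adjusted p = 0.0285), with P2 at 8325 and 8308 CPM. Neither was called without P2 or without any 1 Adult mouse, nor was Saa1 without P1 (adjusted p up to 0.0938 and 0.0808 for the 2 genes), and without P2 the log2 fold changes were 3.01 and 3.51. Vehicle-treated Old livers had 489 ± 587 CPM of Saa1 and 317 ± 422 CPM of Saa2. Their Old minus Adult log2 fold changes were 3.52 and 4.12 (edgeR adjusted p = 0.0711 and 0.0666). PDX minus Old was not called for either gene (adjusted p = 0.793), and without P2 its log2 fold changes were -0.51 and -0.61. DESeq2 gave no adjusted p for either gene. Saa1 and Saa2 are near-identical copies, so that their split of read pairs is uncertain.

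Of 19 tested genes for assembly and secretion of apoB particles, 1 rose between Old and Adult, Hspa5, the endoplasmic reticulum chaperone BiP, from 929 ± 218 to 1695 ± 482 CPM (log2 fold change 0.87 ± 0.23, edgeR adjusted p = 0.0405). Of 10 tested genes for HDL formation and remodelling, 0 were called, and Abcg1, a cholesterol exporter and the gene of smallest p there, had a log2 fold change of 1.18 ± 0.46 (adjusted p = 0.113) and 0.36 without O2 and O5. Of 15 tested genes for lipoprotein uptake and lipolysis control, 1 rose, Lpl, which encodes lipoprotein lipase, from 19.9 ± 2.51 to 67.3 ± 73.9 CPM (log2 fold change 1.76 ± 0.50, adjusted p = 0.0471). Lpl was at 198 CPM in O2, the mouse with the highest macrophage marker sum, and without O2 its log2 fold change was 0.81 (adjusted p = 0.0902), or 0.56 without O2 and O5 (adjusted p = 0.178). Of 23 transcription factors known to act on apolipoprotein genes, 1 rose, Foxa3, a forkhead factor of hepatocytes, from 33.6 ± 8.89 to 58.7 ± 18.5 CPM (log2 fold change 0.80 ± 0.21, adjusted p = 0.0368). Between PDX and Adult, Foxa3 rose by 1.06 (adjusted p = 0.0156) and Foxa1 fell by 1.12 on the log2 scale (adjusted p = 0.012), the former call being lost without A2 or A4 (adjusted p up to 0.052). Hspa5, Lpl and Foxa3 each lost their Old minus Adult call when any 1 Adult mouse was left out, with adjusted p-values of at most 0.108, and Hspa5 also without O1. Between PDX and Old 0 genes of any of these lists were called.

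**Figure D5:**
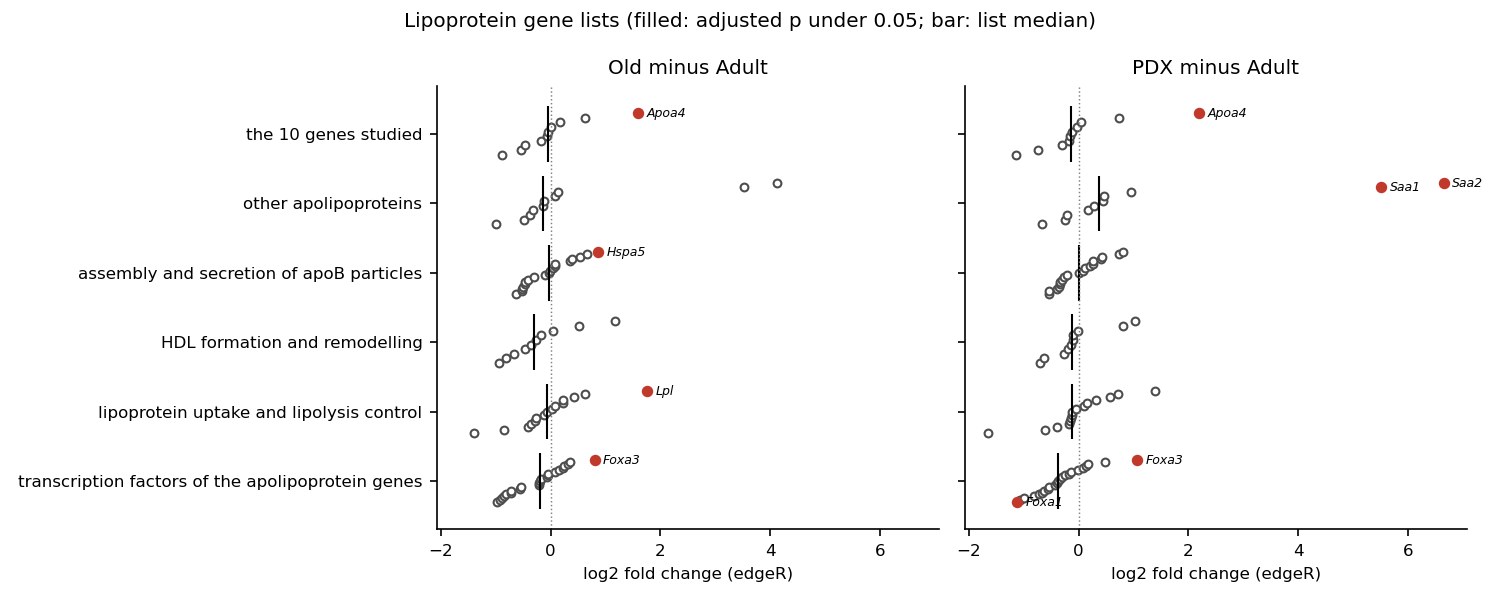
Log2 fold change (edgeR) of each tested gene of the 10 studied and of 5 wider lists, for Old minus Adult and PDX minus Adult, with the list median as a bar. Filled points passed an adjusted p under 0.05. Apoa4, Hspa5, Lpl and Foxa3 are filled for Old minus Adult, and Apoa4, Saa1, Saa2, Foxa3 and Foxa1 for PDX minus Adult.

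The state of the livers around these genes was measured with 2 further lists. Of 12 tested genes of fasting and lipid droplets, 0 were called in the 3 comparisons, and the genes of largest change between Old and Adult were Cidec (log2 fold change 2.20, edgeR adjusted p = 0.133), G0s2 (-1.41, 0.19) and Fgf21 (-1.28, 0.302). Cidec, a lipid droplet protein, was at 18.6 CPM in O5 and at 0.351 to 1.13 CPM in the other Old mice, and O5 was also the mouse of highest Apoa5. Without O5 the log2 fold change of Cidec was -0.33, and without O2 and O5 it was -0.07, while that of G0s2 was then -0.84. Fgf21 was at 14.5 CPM in A1 and at 0.493 to 2.55 CPM in the other Adult mice, and without A1 its log2 fold change was 0.42. Of 12 acute phase genes, 5 rose between Old and Adult. The largest were Lcn2 (log2 fold change 4.74, adjusted p = 0.00416), Orm2 (3.02, 0.0386) and Apcs (1.77, 0.00758), and the Orm2 call was lost without any 1 Adult mouse or without O5, with adjusted p-values up to 0.0956, and without O2 and O5 its log2 fold change was 2.18 (adjusted p = 0.0801). Their part in the apolipoprotein differences was not tested.

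For each of the 10 genes, the tested gene whose log2 CPM ran most alike over the 15 mice was found among 12013 genes. It was Pdia6 for Apoa1 (Pearson r = 0.94 and Spearman rho = 0.94 over 15 mice, r = 0.94 over the 13 mice without O2 and O5), Ndufa9 for both Apoa2 (0.98, 0.96 and 0.95) and Apoe (0.99, 0.95 and 0.93), and Cyp4a31 for Apoa4 (0.92, 0.86 and 0.92). It was Wdr73 for Apoa5 (0.94, 0.93 and 0.88), Gm6997 for Apoc3 (0.97, 0.97 and 0.90), F9 for Mttp (0.92, 0.93 and 0.84) and Emc4 for Lcat (0.93, 0.86 and 0.85). It was Thap6 for Apob (0.92, 0.65 and 0.69) and Ppp2r2d for Apoc2 (0.95, 0.70 and 0.79), both lower by rank and without O2 and O5. These correlations are the highest of many, pool 3 groups of mice that share their libraries and scaling, and are given as descriptions.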

How the data were processed

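Liver RNA of 15 female mice was sequenced, with 5 Adult, 5 Old and 5 PDX mice named as in the sample labels. The authors aligned read pairs to mm10 with STAR 2.6.0c and deposited whole-number counts per gene from featureCounts (Subread 1.6.2, Ensembl 100; uniquely aligned proper pairs on the same strand, non-mitochondrial genes). The authors also deposited variance-stabilized values on a log2-like scale (DESeq2 1.23.10), which were used here in 1 alternative.

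From the counts, genes were kept by filterByExpr (minimum count 10, minimum total 15), scaled by TMM and tested with the edgeR 4.0.16 quasi-likelihood test on all 15 mice, 1 coefficient per group (R 4.3.3). Adjusted p-values are Benjamini-Hochberg over 15808 genes, called under 0.05 or, for PDX minus Old, under 0.25, the level used in the study. The p-values are two-sided and rest on the spread between separate mice. That spread was estimated for each gene over all 3 groups together. The standard errors, intervals and p-values of PDX minus Adult therefore also depend on the Old mice, which varied more. CPM are on TMM-scaled library sizes, except the marker sums and where library totals are named. Log2 CPM for likeness used a prior count of 2. Levels per kb used merged exons of GENCODE M21 (GRCm38), which also paired 55104 of 55450 IDs with symbols. Upstream sequences are from RefSeq, GRCm38.p6. Python 3.11.15, numpy 2.4.6, pandas 2.3.3 and scipy 1.17.1 were used for the summaries.

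The alternatives were DESeq2 1.42.0, limma 3.58.1 (limma-trend, and limma on the deposited values), 4 other scalings, no filter, 10 mice only, no O2 and O5, a replicate block and each mouse left out. The test was checked on simulated data for Old minus Adult over 15808 genes: of 200 genes changed by a log2 of 1, 72 were recovered among 77 calls, and of 200 changed by 2, 154 among 161 calls. The simulation gave each gene the same spread in every group. In the measured data 10 of 10 members varied more between Old than between Adult mice, which the simulation does not cover.

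The members and lists were chosen with earlier results of these data known. Besides the 10 members, the genes named were those called between Old and Adult in each pathway list (the 5 largest changes where more were called, the smallest p where none was), the 3 largest changes of each list on the state of the liver, and the tested gene most alike to each member among genes whose log2 CPM averaged 1 or more. Saa1, Saa2, Foxa1, Gm44805, Sik3 and Zpr1, and the marker genes given singly, were named after their values were seen. Spp1, Lpl, Fgb and Pck1 stand in more than 1 list. Precision is limited by 5 mice per group and, for Apoc2, by its low count.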

Additional observations from a re-analysis of the deposited data

Results flagged for a closer look

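In 14 of 72 groups of 5 mice 1 mouse stood apart from the other 4, its gap to the nearest of them being over 0.71 of the range of the group. Chance gives this in about 1 in 20 groups of independent, normally distributed values. That rate does not carry over to these 72, since several of the genes were named for their large changes or after their values were seen, CPM values are skewed, and the same mice (O2, O5 and P2) recur. All values are TMM-scaled CPM, and no cause was tested.

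Among the 10 genes, O5 had 3439 CPM of Apoa5 against 451 to 872 in the other Old mice, and 9.20 CPM of Apoc2 against 1.29 to 2.93. A4 had 1743 CPM of Apoa5 against 1102 to 1245 in the other Adult mice. P3 had 2623 CPM of Apob against 2963 to 2995 in the other PDX mice.

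Among the other genes named, O2 had 66.7 CPM of Abcg1 against 8.87 to 13.8 in the other Old mice and 198 CPM of Lpl against 21.0 to 51.5. O5 had 18.6 CPM of Cidec against 0.351 to 1.13 and 1047 CPM of Saa2 against 28.3 to 307. A2 had 15.6 CPM of Lpl against 20.3 to 22.0 in the other Adult mice, and A1 had 14.5 CPM of Fgf21 against 0.493 to 2.55.

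P2 stood apart in the acute phase genes. It had 8325 CPM of Saa1 against 158 to 715 in the other PDX mice, 8308 CPM of Saa2 against 100.2 to 450.4, 1201 CPM of Lcn2 against 202 to 488 and 1062 CPM of Orm2 against 97.5 to 199.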

How the results depend on the processing

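The number of members called depended on the fit, and the cause was not tested. For Old minus Adult, DESeq2 called 4 members (Apoa1, Apoa2, Apoa4 and Apoe), library totals 2 (Apoa1 and Apoa4), and limma-trend, limma on the deposited values and the fit without a low-count filter 0, with 0 to 2 when 1 mouse was left out. Without O2 and O5 the count was again 1, but the gene was Apoa1. The adjusted p of Apoa4 was 0.0718 with limma-trend, 0.0753 with limma on the deposited values, 0.0532 without the filter and 0.072 without O2 and O5, and it ranged from 0.0042 to 0.0993 over all 21 alternatives, 9 of which called it. For PDX minus Adult, DESeq2 called 2 members (Apoa1 and Apoa4), the fit of only those 10 mice 5, the fit without O2 and O5 4 (Apoa1, Apoa2, Apoa4 and Apoa5), and the fits with 1 mouse left out 0 to 1. There, 17 of 21 alternatives called Apoa4. For PDX minus Old every alternative called 0 members.

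Apoa4, the member called, changed sign in none of the alternatives. For Old minus Adult, Apoa1 (0.44 to 0.87), Apoa2 (-1.14 to -0.43), Apoc3 (-0.70 to -0.11) and Apoe (-0.68 to -0.24) also kept their sign. For PDX minus Adult, Apoa1, Apoa2, Apoa5, Apob, Apoc3 and Apoe did so too. Sign changes of members that were not called are given below. Of the other genes named, Cidec went from 2.20 to -0.07 without O2 and O5 and to -0.33 without O5, and Fgf21 from -1.28 to 0.42 without A1 (Old minus Adult). For Old minus Adult, log2 fold changes became 0.022 for Apoa5 with library totals, 0.095 for Apob, -0.34 for Apoc2 and 0.15 for Mttp without O2 and O5, -0.11 for Apoc2 and -0.075 for Lcat with limma-trend, and -0.063 and -0.067 with limma on the deposited values. For PDX minus Old without O2 and O5 they became -0.11 for Apoa1, -0.28 for Apoa2, -0.20 for Apob, 0.18 for Apoc2, -0.027 for Apoc3, -0.040 for Apoe, -0.15 for Mttp and -0.18 for Lcat, and with library totals -0.00040 for Apob and -0.015 for Mttp. For PDX minus Adult, Mttp became 0.016 with upper-quartile factors. With 1 mouse left out, Old minus Adult values ranged from -0.90 to 0.17 for Apoa5, -0.54 to 0.40 for Apoc2, -0.14 to 0.049 for Mttp and -0.13 to 0.18 for Lcat. PDX minus Old values ranged from -0.045 to 0.41 for Apoa2, -0.088 to 0.13 for Apob, -0.56 to 0.37 for Apoc2, -0.064 to 0.11 for Mttp and -0.13 to 0.19 for Lcat. PDX minus Adult values ranged from -0.27 to 0.022 for Apoc2, -0.10 to 0.038 for Mttp and -0.020 to 0.092 for Lcat.

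The mouse numbers mark different animals. Same-numbered mice had mean correlations of deviations of -0.168 (Adult and Old), 0.092 (Old and PDX) and 0.031 (Adult and PDX) over 5 pairs each. Different-numbered mice had 0.044, -0.022 and -0.0078 over 20 pairs each. The 5 same-numbered Adult and Old pairs ranged from -0.215 to -0.110. The paper states that mice were studied in batches, and whether equal numbers share a batch was not tested. With the replicate block 0 members were called in all 3 comparisons, with an adjusted p for Apoa4 of 0.0985 for Old minus Adult and 0.0534 for PDX minus Adult, and Old minus Adult log2 fold changes of -0.076 for Apoc2 and -0.046 for Lcat.

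Over all genes, Old minus Adult gave 1072 calls, against 2605 with DESeq2, 651 with limma on the deposited values, 105 with 10 mice, 665 without the filter, 237 with the replicate block and 156 to 2178 with 1 mouse left out. PDX minus Adult gave 420, against 1388 with DESeq2, 4529 with 10 mice, 4004 without O2 and O5 and 166 to 585 with 1 mouse left out. PDX minus Old gave 0, against 1 with DESeq2. Of the Old minus Adult calls 69.5% were higher in Old, against 52.7% with limma-trend and 50.2% with limma on the deposited values. Of the PDX minus Adult calls 66.2% were higher in PDX, against 54.4% with those 10 mice. Scaling by library totals gave a median log2 fold change over all genes of 0.16 for Old minus Adult, against 0.07.

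Counts were high for 9 of the 10 members and low for Apoc2, with 44 to 255 per mouse. Most exon bases of Apoc2 are shared with Gm44805, and the part of that overlap in its low count was not tested. Lengths from the longest transcript raised the Adult levels per kb of Apoe, Apoc3, Mttp and Apoa1 but kept the order of the members.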
